A study of Homo sapiens and Mus musculus with 19 samples.

Results

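The human potassium channel genes were taken as the autosomal protein-coding genes whose symbol begins with KCN, with 1 gene left out. They were chosen by name, with no measured value in the rule, though earlier results of these data were known. They number 93 of the 19125 autosomal protein-coding genes placed on the tables. Of these, 38 encode pore-forming subunits of the voltage-gated (Kv) type and 8 those of calcium- or sodium-activated channels and their relatives (KCa/KNa). Pores of the inward rectifier type (Kir) are encoded by 16, and those with a pair of pore domains (K2P) by 15. The other 16 encode auxiliary subunits and a regulator, which do not form a pore.

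Potassium channels let potassium ions cross the membrane and so set its resting voltage and end its electrical signals. Kv channels open when the membrane depolarises, and most KCa/KNa channels when calcium or sodium rises inside the cell. Kir channels pass current best near the resting voltage, and K2P channels carry a steady leak. Auxiliary subunits change where the pores go and how they open. Many of these genes are best known from neurons, heart and endocrine cells, and some act in epithelia. DNA methylation (5mC) sits mostly on CpG dinucleotides, is usually high in gene bodies and is usually absent from the CpG-dense starts of genes. Hydroxymethylation (5hmC) is made from 5mC by the TET enzymes.

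The libraries came from H1ES, a human embryonic stem cell line, and HepG2, a line from a hepatocellular carcinoma, with no treatment named in the labels. Each line had 2 libraries of 1000 cells and 5 libraries of 1 cell. Mouse cerebellum libraries of the same series were not used here. Each line comes from a single source, so cell type, disease and donor genome cannot be told apart in any difference below. No label says that the libraries of a line came from separate cultures, so p-values measure only the spread between these libraries, which may be technical. The assay counts tags at CCGG sites, each cut site being read as unmethylated, 5mC or 5hmC, and a share is the percent of a region's tags that are of 1 kind.

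The 1000-cell libraries held between 4911898 and 6644517 tags and the single cells between 526207 and 2455908. Over all autosomes 5mC made up 93.6% and 94.2% of the tags in the H1ES libraries of 1000 cells and 60.6% and 61.7% in those of HepG2, so the lines differed genome-wide before any gene was looked at. Crowded CCGG sites, with at least 10 sites within 500 bp counting the site itself, held a tag in 8.34% of cases in H1ES and 8.21% in HepG2. Isolated sites held one in 71.2% and 71.3%, which leaves CpG-dense gene starts thinly covered. Marker genes of the lines were also read at gene starts. The markers came from known biology and from earlier results of these data, so they are no independent check of identity. APOC3, ALB and AFP, also listed for hepatocytes, gave no start value. The hepatocyte genes HNF4A, APOH and F2 were 89.8% to 93.0% unmethylated in HepG2 and 0% to 1.72% in H1ES. The pluripotency genes POU5F1, NANOG, L1TD1 and ZFP42 were 81.3% to 91.7% unmethylated in H1ES and 5.21% to 25.6% in HepG2. LIN28A, another pluripotency gene, did not separate the lines, at 75% of 4 tags in H1ES library 1, with no tag in library 2, and 66.7% and 33.3% of 3 tags each in HepG2. DNMT3B was unmethylated in both, at 96.4% in H1ES and 94.1% in HepG2.

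The bodies of potassium channel genes carried far less 5mC in HepG2 than in H1ES. With the tags of all members summed, 5mC made up 94.6% and 94.8% of body tags in the H1ES libraries and 41.2% and 42.3% in the HepG2 libraries, or 94.7% ± 0.203 against 41.8% ± 0.838 (SD, n = 2 libraries per line). The HepG2 value lies below that line's genome-wide share, whereas the H1ES value lies close to its own. A body here is the gene span without the first 1 kb. Of the 93 members, 72 had at least 20 tags in every library and were tested with edgeR's quasi-likelihood test, with p-values adjusted over all 13809 genes tested and called at 0.05. In that test 67 of the 72 fell in HepG2, where 54.8% of all genes tested fell, and 2 rose, where 2.64% of all genes rose. The median log2 odds of 5mC (HepG2 minus H1ES) was -4.71 over the members and -1.93 over all genes tested. The median share in HepG2 was 42.1% over the members and 87.0% over all genes, while in H1ES it was 95.5% and 97.0%. Members held a median of 220.25 tags per library and all genes 117, and a deeper gene is called more easily. By level, 48 of the 72 members lay under 50% in HepG2, against 20.5% of all genes, and 13 lay under 30%, against 5.64%.

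Because HepG2 as a whole had less 5mC, the same fit was repeated on odds relative to those of each library. It moved the median of all genes from -1.93 to 0.77 and that of the members from -4.71 to -1.88. Relative to the library, 51 members fell, where 24.5% of all genes fell, and 8 rose, where 35.1% of all genes rose. They included KCNJ5, KCNK4, KCNN4, KCNH3, KCNG3, KCNAB3 and KCNIP2. Of these, KCNJ5, KCNK4, KCNN4 and KCNH3 had fallen in the unscaled fit, so their direction depends on the scale.

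Genes of 200 kb and over lost more 5mC in HepG2 than shorter genes did, and some channel genes are that long. Over all genes the median log2 odds were -1.84 under 50 kb, -1.69 from 50 to 200 kb and -4.05 above. Among genes under 50 kb, 27 of 31 members fell, where 48.6% of all such genes fell. Between 50 and 200 kb, 22 of 23 members fell, where 58% of all fell. At 200 kb and over, all 18 members tested fell, where 80.1% of all fell. The median HepG2 share of members was 52.4%, 43.5% and 33.5% in these length classes, against 87.1%, 89.9% and 58.0% for all genes tested. Members therefore lay lower than the other genes in each class. No test was made of a list against the rest.

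**Figure D1:**
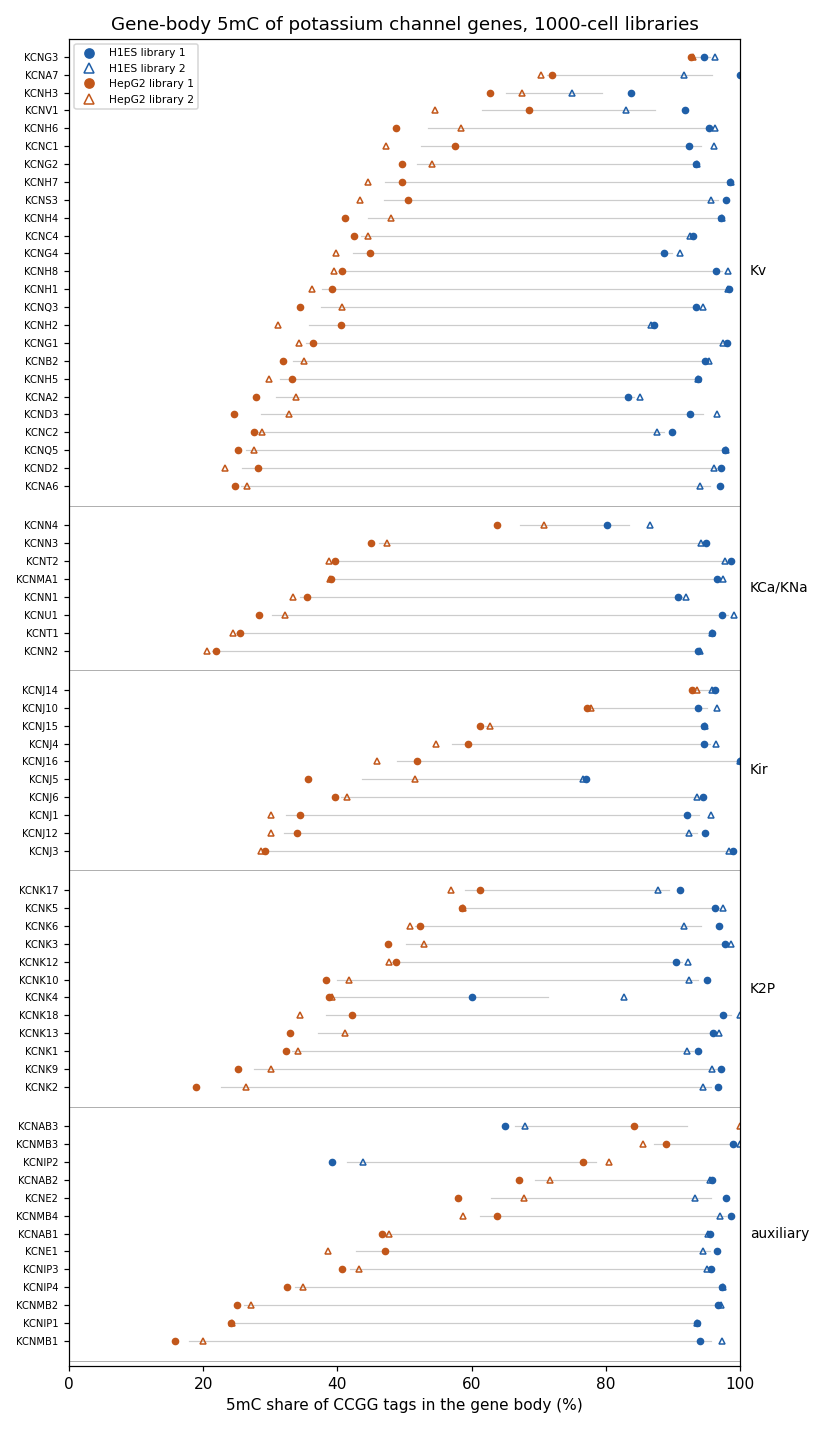
Each of the 68 rows is a tested member, grouped by subfamily, and the horizontal axis is the share of 5mC among its body tags in percent. Filled circles are library 1 and open triangles library 2 of H1ES (blue) and HepG2 (orange), and grey lines join the means of the lines. Most HepG2 points lie between 20% and 60% and most H1ES points above 90%, with KCNIP2 and KCNAB3 in the opposite order.

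Among the Kv genes, whose channels repolarise excitable cells, 27 of 29 tested fell, where 54.8% of all genes tested fell. The Kv median was 42.4% in HepG2 and 95.1% in H1ES. KCNQ5, a subunit of the M-current, showed the widest fall of the Kv genes, from 97.8% and 97.9% in the H1ES libraries to 25.2% and 27.5% in HepG2. KCND2, a pore of the transient A-type current, went from 97.2% and 96.2% to 28.2% and 23.3%. In both genes the libraries of each line lay close together and far from those of the other line, with log2 odds of -6.98 ± 0.211 (SE) and -6.38 ± 0.227. KCNH1, an ether-a-go-go channel often found in tumours, held 98.3% in both H1ES libraries and 39.3% and 36.2% in HepG2. All of these fell.

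KCNH2 encodes the hERG channel, which ends the action potential of heart muscle. Its body was less methylated in H1ES than most, at 87.1% and 86.8%, and held 40.5% and 31.2% in HepG2. KCNH3, a relative found in brain, changed least of the called Kv genes, from 83.8% and 75% to 62.8% and 67.5%. The libraries of the lines did not overlap for KCNH3, but the nearest of them were closer than the H1ES libraries were to each other. Its span also overlaps MCRS1, so some of its tags may belong to that gene. By Kv group, all 8 KCNH, both KCND and all 3 KCNA genes tested fell, where 54.8% of all genes tested fell. Of the silent subunits (KCNF, KCNG, KCNS and KCNV), 5 of 6 genes fell. Silent subunits conduct only when joined to other Kv pores.

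KCNG3, a silent subunit, was among the Kv genes that were not called. It kept 92.8% and 93.0% 5mC in HepG2 against 94.7% and 96.4% in H1ES, with an adjusted p of 0.0788 in edgeR's quasi-likelihood test. It lay in surroundings that were also methylated in HepG2, at 89.2% within 100 kb on either side.

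All 8 KCa/KNa genes were tested and all fell, where 54.8% of all genes tested fell. The KCa/KNa genes had the lowest subfamily median in HepG2, 36.7%, against 95.2% in H1ES. KCNMA1 encodes the large-conductance BK channel, spans chr10:76869602-77637808 (GRCh38) and had the most body tags of the subfamily, 1827 and 1416 in the H1ES libraries and 1401 and 1210 in HepG2. It held 96.6% and 97.5% 5mC in H1ES and 39.1% and 38.9% in HepG2, so the replicates differed by under 1 point and the lines by 58.0 points. KCNN2, a small-conductance SK channel of neurons and heart, held 93.8% and 94.1% in H1ES and 21.9% and 20.6% in HepG2 (log2 odds -5.83 ± 0.19 SE, edgeR adjusted p = 7.8e-202). KCNT1, the sodium-activated Slack channel, held 95.9% in both H1ES libraries and 25.4% and 24.4% in HepG2. KCNN4 differed from these relatives in size. It encodes the intermediate-conductance channel of blood and epithelial cells and fell only from 80.2% and 86.7% to 63.8% and 70.8%, with an adjusted p of 0.0145 in the edgeR test.

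Of the 16 Kir genes, 10 were tested and 9 fell, where 54.8% of all genes tested fell. The Kir medians were 46.2% in HepG2 and 94.9% in H1ES. KCNJ3, a pore of the G protein-gated channel that slows the heart, held 99.1% and 98.4% in H1ES and 29.1% and 28.7% in HepG2. KCNJ6, which encodes another G protein-gated subunit and is the Kir gene with the most body tags, held 94.5% and 93.6% against 39.6% and 41.4%. Both fell by more than 50 points. KCNJ10, the main Kir channel of glia, fell by only 17.6 points, to 77.3% and 77.8%. KCNJ14 was not called: it held 96.2% and 95.9% in H1ES and 92.9% and 93.7% in HepG2, with an edgeR adjusted p of 0.473, and its span overlaps GRWD1. KCNJ12 fell too, but it and KCNJ18 are near-identical copies and the tags of either could be split between them.

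Of the 15 K2P genes, 12 were tested and all fell, where 54.8% of all genes tested fell. The K2P medians were 39.5% in HepG2 and 95% in H1ES. KCNK2 encodes TREK-1, a leak channel opened by stretch and lipids, and spans chr1:215005542-215237090. It showed the largest fall of any member with at least 100 tags on average, 73.0 points, from 96.8% and 94.5% to 19% and 26.4%. KCNK13, the K2P gene with the most body tags, held 96.1% and 96.8% in H1ES and 33.0% and 41.1% in HepG2. KCNK1 (TWIK-1) went from 93.8% and 92.2% to 32.4% and 34.2%. Changes in these genes were many times the distance between libraries. KCNK5 (TASK-2), an acid-sensitive channel of kidney and other epithelia, kept more, with 58.6% and 58.7% in HepG2 against 96.4% and 97.4% in H1ES.

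Of 13 auxiliary genes tested, 11 fell and 2 rose, where 54.8% and 2.64% of all genes tested did so. No other subfamily had a rise in this fit. On odds relative to each library, 3 Kv, 1 KCa/KNa, 1 Kir, 1 K2P and 2 auxiliary genes rose, where 35.1% of all genes rose. The auxiliary medians were 47.2% in HepG2 and 95.7% in H1ES. KCNIP1 and KCNIP4 encode calcium sensors that bind Kv4 pores. KCNIP1 held 93.6% and 93.5% in H1ES and 24.1% and 24.4% in HepG2, and KCNIP4, a gene of over 1000 kb with the most body tags of the subfamily, held 97.3% and 97.5% against 32.4% and 34.8%. KCNMB2, a BK channel beta subunit, held 96.7% and 97.2% against 25% and 27.1%. All 3 fell by more than 60 points. KCNMB1, another BK beta subunit, lies within KCNIP1, so its lower HepG2 shares of 15.7% and 20% rest on tags counted in both genes. KCNAB2, a cytoplasmic Kv beta subunit, kept 67.2% and 71.6% in HepG2.

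KCNIP2 and KCNAB3 rose. KCNIP2 encodes KChIP2, the Kv4 partner of heart muscle, and spans chr10:101825974-101843800. Its body was less than 50% methylated in H1ES, at 39.2% and 43.8%, and held 76.6% and 80.5% in HepG2, a gain of 37.1 points (log2 odds 2.37 ± 0.552 SE, edgeR adjusted p = 4.29e-05). The libraries held 51 and 32 tags in H1ES and 47 and 41 in HepG2, and the rise was called under all 13 alternatives that could be run. KCNAB3, a Kv beta subunit, held 65.0% and 68.0% in H1ES and 84.2% and 100% in HepG2, on 20 to 40 tags a library (edgeR adjusted p = 0.0149). It was not called with DESeq2 (0.134), with limma (0.0802), when H1ES replicate 1 was left out (0.0721) or HepG2 replicate 2 was (0.182).

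The remaining 21 members had too few body tags for the test, mostly because the gene is short, and 1 of them, KCNRG, had none. Of the 19 with at least 10 pooled tags in each line, 17 were lower in HepG2, and in 9 the exact Clopper-Pearson intervals at 95% did not overlap. No such count was made over all genes. Intervals cover counting error only. KCNJ11, the pore of the ATP-sensitive channel that couples glucose to insulin release, held 92.9% and 93.3% 5mC in H1ES and 57.1% and 37.0% in HepG2. KCNE3, a beta subunit of epithelial channels, held 100% in both H1ES libraries and 85.7% and 89.5% in HepG2. KCNA1, a Kv1 channel of axons, held 96.0% and 100% against 66.7% and 91.7%. KCNV2 and KCNJ8 were higher in HepG2, and both names were chosen after their values were seen. KCNJ8, another pore of ATP-sensitive channels, had 3 of 23 tags as 5mC in H1ES and 9 of 11 in HepG2, with intervals of 2.78% to 33.6% and 48.2% to 97.7%. All of these tags came from 1 CCGG site, the only site in its body.

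Lists of related genes, chosen by their names, behaved in a like way. In bodies, 13 of 14 tested partner genes without a KCN symbol (such as the HCN pacemaker channels and the sulfonylurea receptors) fell. So did 13 of 14 sodium channel genes and 24 of 25 calcium channel genes, where 54.8% of all genes tested fell. None rose, where 2.64% of all genes rose. On odds relative to each library, 12 partner, 8 sodium channel and 19 calcium channel genes fell, and 0, 1 and 2 rose. On that scale 24.5% of all genes fell and 35.1% rose. The lists had median HepG2 shares of 36.6%, 39.3% and 36.0%, beside 42.1% for the potassium channel genes. Low body 5mC in HepG2 was thus seen over these ion channel lists too, and a difference between the lists was not tested.

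The DNA around the members was also low in 5mC in HepG2. Within 100 kb outside the gene on either side, the median share over the 72 members was 50.3% in HepG2 and 93.3% in H1ES. The body lay below its own flanks in 48 of 72 members in HepG2, with a median difference of -4.40 points. Flanks were not read for all genes, so whether these values are particular to the members was not tested. Across the 72 members, body and flank shares in HepG2 went together (Pearson's r 0.606, Spearman's rho 0.605), which is a description across genes that share libraries and depth. Longer genes had lower shares (rho -0.505 with length). Some genes departed widely from their surroundings. KCNT1 held 24.9% in its body against 57.3% in its flanks, and KCNK13 37.0% against 69.8%, while KCNJ10 held 77.5% against 55.9%. KCNAB3 stood 29.6 points above its flanks, and KCNIP2 was close to them, at 78.5% against 78.6%, whereas in H1ES it lay far below them, at 41.5% against 87.7%.

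**Figure D2:**
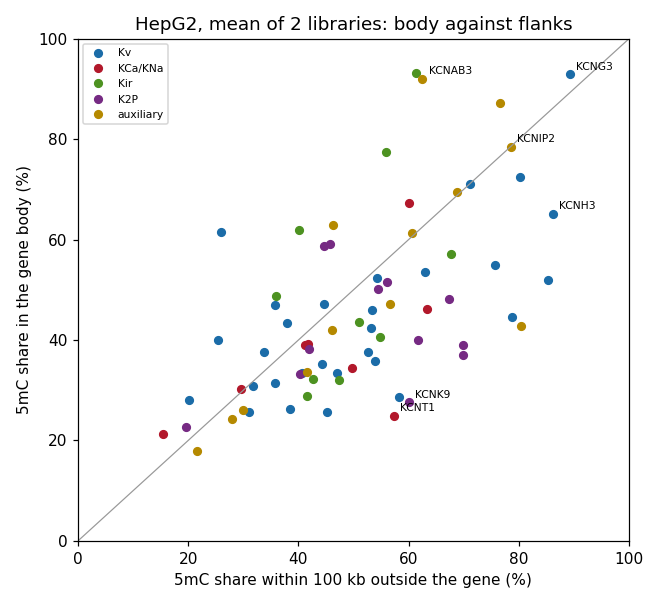
Each point is 1 of the 72 members in HepG2, coloured by subfamily, with the 5mC share within 100 kb outside the gene on the horizontal axis and that of the body on the vertical axis, both in percent as means of 2 libraries. The grey line marks equal shares. In 48 of 72 members the body lies below the line, and KCNT1 and KCNK9 are among those far below it.

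The loss was uneven along long genes. In windows of 50 kb with at least 10 tags in each library, KCNMA1 held 3.23% to 56.0% 5mC in HepG2 over 16 windows and 91.5% to 99.2% in H1ES. The 3.23% is its last window, shorter than 50 kb, with 31 and 15 tags in the HepG2 libraries. The next lowest window held 13.2%. KCNIP4 ranged from 6.94% to 64.7% over 24 windows in HepG2 and from 87.1% to 100% in H1ES. KCNN2 was more even, at 15.2% to 31.9% over 9 windows. KCNAB1, a Kv beta subunit named after its values were seen, ranged most widely, from 24.4% to 96.8% over 9 windows. That width rests on its last, shorter window of 8 sites, with 31 and 22 tags in the HepG2 libraries. The next highest window of KCNAB1 held 58.5%. In these 4 genes the mean of the H1ES libraries was at least 76.4% in every window. In HepG2 these 4 genes held windows with little 5mC and, at the end of KCNAB1 only, a nearly fully methylated one. Another long member also held a nearly fully methylated window, inside the gene, but with under 10 tags in 1 H1ES library.

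**Figure D3:**
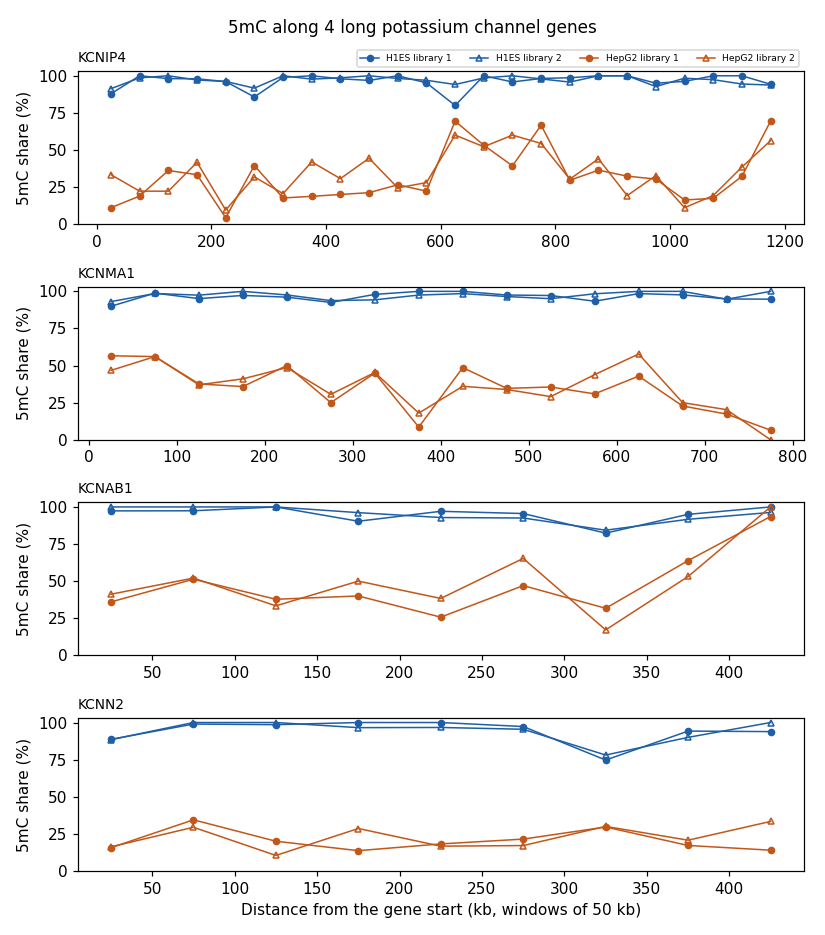
The share of 5mC in percent (vertical axis) is plotted by distance from the gene start in kb (horizontal axis, windows of 50 kb) for KCNIP4, KCNMA1, KCNAB1 and KCNN2, with 2 libraries of H1ES in blue and 2 of HepG2 in orange. The last window of each gene is shorter than 50 kb. H1ES runs near the top in all 4 genes. HepG2 varies along KCNIP4, KCNMA1 and KCNAB1 and stays between 15.2% and 31.9% in KCNN2 as means of the libraries.

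Single sites showed the same spread. Of the member body sites with at least 10 tags pooled over the 2 libraries of a line, 93.9% of 2103 in H1ES were over 80% 5mC and 1.52% were under 20%. In HepG2, 23.6% of 1660 were over 80%, 37.7% were under 20% and 38.7% lay between. Sites in HepG2 were thus of all kinds, with a median of 35.3%, rather than all partly methylated.

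At gene starts the potassium channel genes did not move as a block. Over the tags within 1 kb of all member starts, the unmethylated share was 48.9% and 43.3% in the H1ES libraries and 63.2% and 60.8% in HepG2, a much smaller gap than in bodies. No member reached 20 tags at its start in every library, so a minimum of 5 tags was used, which left 48 of 93 members. In edgeR's quasi-likelihood test 15 of these 48 rose in unmethylated share in HepG2, where 26.1% of the 9928 genes tested rose, and 6 fell, where 4.27% of all fell. On the relative scale the rising members numbered 11 and the falling ones 8, where 17% and 6.85% of all genes were called. The rising count is near the background. These starts rest on few tags: without H1ES replicate 1, without H1ES replicate 2 or without HepG2 replicate 1 no member was called (13, 16 and 23 members had an unadjusted p under 0.05), and without HepG2 replicate 2 the count was 8 rising and 0 falling. DESeq2 called 13 and 2.

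**Figure D4:**
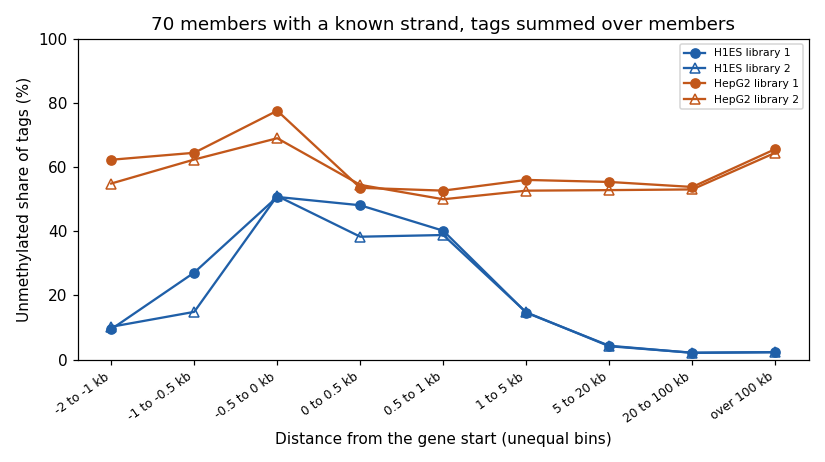
The unmethylated share of tags in percent (vertical axis), summed over the 70 members with a known strand, is plotted by distance from the gene start (horizontal axis, unequal bins) for 2 libraries of each line. H1ES peaks at 50.7% and 51.0% just upstream of the start and drops to 2.11% and 2.17% from 20 kb to 100 kb, whereas HepG2 stays at or above 50% in every bin.

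Along the 70 members whose strand is known, the lines were closest just inside the gene. In the first 500 bp of the gene, 48.1% and 38.3% of tags were unmethylated in H1ES and 53.6% and 54.5% in HepG2. Between 1 and 2 kb upstream the lines were far apart, at 9.48% and 10.2% against 62.3% and 54.9%. From 1 to 5 kb inside they were apart again, at 14.6% and 14.8% in H1ES against 56.0% and 52.7% in HepG2. The dip of H1ES towards methylation on both sides of the start had no counterpart of that size in HepG2.

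The starts that rose fell into a sparse and a dense kind when sorted by CCGG sites in the window, a grouping chosen after the values were seen. Of 10 tested starts with 1 to 5 sites, 8 rose and 0 fell. Of 16 with 6 to 14 sites, 2 rose and 4 fell, and of 22 with 15 sites or more, 5 rose and 2 fell. These classes were not counted over all genes, so whether the split is particular to the members was not tested. Summed over all members in the class, starts with 1 to 5 sites were 10.9% and 7.73% unmethylated in H1ES and 66.4% and 59.5% in HepG2, much like gene bodies. Starts with 6 to 14 sites were 52.5% and 50.5% against 50.8% and 48.2%, with no gap larger than the spread between libraries.

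The sites behind these shares can be read in the promoter sequence. Below are the 250 bases before the start of 4 members, 5′ to 3′ on the gene's strand, from the RefSeq promoter table for GRCh38.p14. They are shown because the sites in the window had tags in all 4 libraries and ran in both directions, and they were chosen after their values were seen. Capitals mark each CCGG, which reads the same on both strands and is the site the assay cuts. The motif is found in this window in 58.5% of all 35116 promoters in that table and in 69.4% of the 108 of the members.
KCNK18, chr10:117197239-117197488, plus strand: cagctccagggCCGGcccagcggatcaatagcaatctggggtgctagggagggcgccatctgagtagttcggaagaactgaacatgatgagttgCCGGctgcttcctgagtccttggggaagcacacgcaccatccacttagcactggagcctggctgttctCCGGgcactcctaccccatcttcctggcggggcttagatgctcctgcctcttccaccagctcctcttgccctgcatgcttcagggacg
KCNG4, chr16:84240013-84240262, minus strand: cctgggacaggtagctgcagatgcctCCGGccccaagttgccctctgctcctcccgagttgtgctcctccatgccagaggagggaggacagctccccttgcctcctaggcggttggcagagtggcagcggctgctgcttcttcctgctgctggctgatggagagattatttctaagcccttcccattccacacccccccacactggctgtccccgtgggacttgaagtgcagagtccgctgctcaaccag
KCNK2, chr1:215005292-215005541, plus strand: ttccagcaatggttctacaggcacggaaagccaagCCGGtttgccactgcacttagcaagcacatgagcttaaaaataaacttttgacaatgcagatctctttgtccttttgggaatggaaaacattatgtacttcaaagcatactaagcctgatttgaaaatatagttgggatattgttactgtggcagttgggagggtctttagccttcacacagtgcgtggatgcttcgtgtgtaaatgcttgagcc
KCNE3, chr11:74467550-74467799, minus strand: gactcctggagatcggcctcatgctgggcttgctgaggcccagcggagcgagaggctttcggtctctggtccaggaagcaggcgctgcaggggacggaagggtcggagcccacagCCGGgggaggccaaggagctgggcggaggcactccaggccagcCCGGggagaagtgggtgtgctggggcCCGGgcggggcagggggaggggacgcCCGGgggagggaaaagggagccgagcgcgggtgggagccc
The 3 sites of KCNK18 gave 0 unmethylated tags of 5 and of 5 in the H1ES libraries and 6 of 6 and 5 of 5 in HepG2. The single site of KCNG4 gave 0 of 9 and 0 of 3 in H1ES and 4 of 4 in each HepG2 library. That of KCNK2 gave 0 of 5 and 0 of 4, then 8 of 9 and 1 of 1. The 4 sites of KCNE3, in a stretch with 73.2% G and C against 42.8% to 62% in the other 3, ran the other way, with 8 of 8 and 2 of 3 unmethylated tags in H1ES and 2 of 4 and 1 of 4 in HepG2. The window of KCNE3 as a whole was not called (edgeR adjusted p = 0.576), and KCNK2 had too few tags for the test.

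Among starts that rose, KCNK16, a K2P channel of the pancreas, had 0 unmethylated tags of 20 and of 10 in the H1ES libraries and shares of 91.7% and 100% in HepG2 (edgeR adjusted p = 9.16e-10). A count of 0 in 30 tags still allows a share of up to 10% in H1ES. KCNK18 (TRESK), a K2P channel of sensory neurons, was at 0% in both H1ES libraries and 100% in both of HepG2, on 5 to 14 tags a library. KCNG4, a silent Kv subunit, was at 0% in H1ES and at 88.9% and 92.3% in HepG2. These 3 starts were the furthest apart of the 48 tested. KCNA10 went from 0% to 100% and 60.0%, and KCNE4, a beta subunit, from 7.14% and 5.56% to 75% and 68.8%.

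KCNIP1 and KCNJ3 rose at the start as well as falling in body 5mC. KCNIP1 was 0% and 8.33% unmethylated at its start in H1ES and 84.2% and 73.9% in HepG2, and KCNJ3 was 15.4% and 8.33% against 62.5% and 100%. For these genes start and body lost methylation together. KCNJ11 rose from 30.8% and 25% to 90% and 100% (edgeR adjusted p = 5.07e-05), and its window holds 23 CCGG sites. KCNA7, a Kv1 channel of muscle with 28 sites, rose from 15% and 10.5% to 78.3% and 66.7%. KCNMB3 went from 0% in both to 61.1% and 21.1%, and its span overlaps another gene. KCNJ18 went from 0% to 47.1% and 55.6%, with the limit given above for near-identical copies. The starts of KCNJ11 and KCNE4, and those of KCNA1 and KCNAB3 below, are the gene ends with more CCGG sites. Their strands were not in the promoter table.

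The 6 starts that fell, and so carried more methylation in HepG2, included those of the Kv genes KCNA1, KCNA3 and KCNA6 and the auxiliary genes KCNIP2 and KCNAB3. KCNA1 was 90% and 100% unmethylated in H1ES and 25% and 44.4% in HepG2 (edgeR adjusted p = 0.00551). KCNIP2 was 61.5% and 69.2% against 22.2% and 0%. KCNAB3 was 44.4% and 20% in H1ES and 0% in both HepG2 libraries. In all 6 the libraries of the lines did not overlap. The Kv1 genes KCNA1 and KCNA6 lie near each other on chromosome 12, and their bodies did not gain methylation: KCNA6 fell there from 97.1% and 94.0% to 24.7% and 26.5%. KCNIP2 and KCNAB3 are the members whose bodies rose too.

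**Figure D5:**
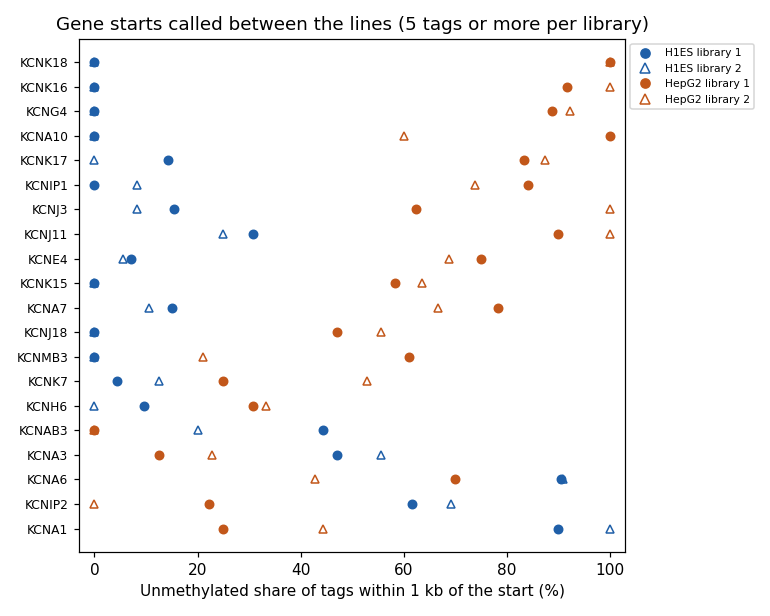
Each of the 20 rows is a member called at the start, with the unmethylated share of tags within 1 kb in percent on the horizontal axis and 2 libraries per line (H1ES blue, HepG2 orange). The upper 15 rows rose in HepG2 and the lower 5 fell. KCNK18, KCNK16 and KCNG4 span most of the axis between the lines.

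Some members had further starts listed in the promoter table inside the gene, 36 in 21 members, and these did not always follow the outer one. Of the 18 with at least 5 tags in every library, both HepG2 libraries were more unmethylated than both H1ES libraries at 14, both were less so at 1, and the lines overlapped at 3. KCNH2 has 4 inner starts. At the one 18265 bp inside, the unmethylated share was 4.55% and 0% in H1ES and 100% and 92.3% in HepG2, on 6 to 22 tags, and at the one 22517 bp inside it was 46.2% and 15.8% against 73.9% and 100%. The other two, whose windows overlap, lie near the outer start and showed no such gap, with 30.8% and 60% against 42.9% and 40% at 3815 bp, and 42.9% and 90% against 54.5% and 33.3% at 3280 bp. KCNAB2 has 3 inner starts, all higher in HepG2 but by unequal amounts. The unmethylated share was 10.3% and 20.8% against 90.5% and 77.8% at 33657 bp, 6.67% and 5% against 68.4% and 40% at 53212 bp, and only 5.88% and 7.69% against 16% and 26.3% at 42012 bp. At the inner start of KCNK10, 56001 bp inside, it was 0% and 7.14% against 100% in both. In KCNIP2 the start 3929 bp inside ran the other way, like the outer one, with 100% in both H1ES libraries and 30.8% and 54.5% in HepG2. These starts were not tested, and inner starts were not counted over all genes. KCNAB2 and KCNK10 were named after their values were seen.

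Hydroxymethylation was low in both lines and lower in HepG2. Over all member bodies 5hmC made up 2.08% and 1.76% of tags in the H1ES libraries and 0.142% and 0.148% in HepG2, or 539 and 346 tags against 31 and 28. In edgeR's quasi-likelihood test 31 of 72 members fell, where 14.9% of all genes fell, and none rose, where 0% of all genes rose. At an unadjusted p under 0.05 the members differing numbered 42, and DESeq2 called 26 as falling and 0 as rising. Relative to each library's odds 0 members were called in either direction by edgeR, where 0.0217% of all genes were called each way, and 10 members had an unadjusted p under 0.05. The summed odds still fell further in the members than over all genes tested, by 3.78 against 2.44 on the log2 scale (HepG2 minus H1ES), a difference that was not tested. The median of the members' fitted log2 odds on the relative scale, -7.28 against -0.31 over all genes, depends on the prior count, since 44 of the 72 members had no 5hmC tag in HepG2. With the replicate number as a block 17 members fell, and against 5mC tags alone 9 fell. Leaving out H1ES replicate 1 left 13, H1ES replicate 2 left 16 and HepG2 replicate 1 left 18. The median share in H1ES was 1.80% over members and 1.34% over all genes.

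High 5hmC shares in H1ES, among members with at least 200 pooled tags, were found in several Kv genes. KCNH3 had 6.59% and 6.73% in the H1ES libraries, which is 18 of 271 tags pooled, and 0 of 271 in HepG2, which allows a share of up to 1.11%. KCNG4 had 7.28% and 3.57%, and KCNH2 4.64% and 3.90%. KCNK12, a K2P gene, had 4.31% and 2.31%, and KCND3, a heart A-type channel, 4.39% and 2.04%. KCNG4 and KCNK12 were not called as different in HepG2 (edgeR adjusted p = 0.0585 and 0.0513). The pooled interval is wide in these genes, from 3.98% to 10.3% for KCNH3 and 2.70% to 6.54% for KCNH2, so their order among themselves is not resolved. Deeper genes gave tighter values near the family level. KCNMA1 had 2.13% and 1.48% in H1ES and 0.214% and 0.248% in HepG2, and KCNIP1 had 2.08% and 2.06% against 0.104% and 0%. KCNT1 had 2.35% and 2.41% against 0.125% and 0%. Among those that the edgeR test called with the smallest p-values were KCND3, KCNIP1, KCNT1, KCNMA1 and KCNN3, all as lower in HepG2.

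Single cells showed levels close to those of the 1000-cell libraries. Each cell is 1 library of 1 line and no culture is named, so no test was made. Summed over member bodies, the 5 H1ES cells held 94.0% to 95.2% 5mC (94.7% ± 0.563, SD, n = 5) and the 5 HepG2 cells 40.7% to 45.7% (43.1% ± 2.12, SD, n = 5). Every HepG2 cell lay below every H1ES cell by a wide gap, on 1852 to 9017 member tags a cell. Over the 47 members with at least 100 pooled single-cell tags in both lines, all 47 were lower in HepG2 and the exact intervals did not overlap in 45. The same count was not made over all genes. Over all autosomes 5mC was also lower in every HepG2 cell, at 59.3% to 63.4% against 93.6% to 94.4% in H1ES cells. Pooled single cells differed from the 1000-cell libraries by a median of 0.148 points over 47 members in H1ES and 0.822 points over 54 in HepG2.

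KCNMA1 held 96.6% in the pooled H1ES cells and 41.4% (38.8% to 44.0%) in the HepG2 cells. KCNIP4 held 97.4% and 34.8%, and KCNT1 95.9% and 28.2%. The genes that kept 5mC in the 1000-cell libraries kept it here, with KCNG3 at 96.0% and 91.6% and KCNAB2 at 96.0% and 69.1%. KCNIP2 was again higher in HepG2, at 79.0% (62.7% to 90.5%, 38 tags) against 44.4% (27.9% to 61.9%, 36 tags). KCNAB3 held 75.9% and 94.7% on 29 and 38 tags, with intervals that overlap.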

How the data were processed

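Tags at CCGG sites were analysed in 4 libraries of 1000 cells and 10 single cells of the lines H1ES and HepG2. The tables have no header. Each deposited fraction is the share of 1 of 3 kinds of tag at a site, and the deposited counts are all its tags. The submitters' processing notes list hg38, Bowtie2 2.3.4.1, cutadapt 1.5 and UMI-tools 0.5.4, with no roles. The kind raised at crowded sites was taken as unmethylated and the larger of the others as 5mC, and every 5hmC value rests on this. Fraction times count gave whole tags within 0.00038. Table positions fell on the second base of CCGG at 35252 of 35252 sites in plus-strand promoters of the RefSeq table (GRCh38.p14).

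The start came from that table's strand for 70 members and was the gene end with more CCGG sites for 23, a choice that met the true start in 87.0% of the genes with a strand whose ends differed in sites (12129 against 1818). Tags of 1 kind were set against the others, with a term for each library, in edgeR 4.0.16 (R 4.3.3, quasi-likelihood test, at least 20 tags in every library), and p-values were adjusted by Benjamini-Hochberg. The test was tried on simulated data. The planned start test reached 0 members at 20 tags (edgeR tested 691 genes, of which 42.4% rose and 5.64% fell), so the listed alternative of 5 tags was used, with further alternatives chosen after seeing the data. Other alternatives were DESeq2 1.42.0, limma 3.58.1 on logit shares (pseudocount 0.5), other tag minimums and windows, a replicate block and each library left out. Intervals are Clopper-Pearson (SciPy 1.17.1), and a share of 0 allows 3 counts over the total. They cover counting error only.

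Members and lists were chosen with earlier results of these data known. Members were named by rule: for body 5mC the 8 largest falls and up to 8 largest rises among called members with at least 100 tags on average, up to 12 called starts, the 6 highest and 6 best-called for 5hmC, the deepest member of each subfamily and 12 well-known genes. Rises under 100 tags (KCNIP2, KCNAB3), genes not called and other names were chosen after their values were seen. No single-gene value is given here for 5 genes, though 4 of them stay in the counts and sums.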

Additional observations from a re-analysis of the deposited data

Results flagged for a closer look

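In HepG2 single cells, 5hmC over all member starts was 0% in 4 cells and 0.238% in cell 5, which is 1 tag of 421. Cell 5 stood apart from the others by the gap between its value and theirs, set against the range of the 5 cells. With 1 tag, the difference is within counting error. When 4 of the 5 cells are at 0%, any tag in the other cell is picked out this way, so the flag says nothing about its size.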

How the results depend on the processing

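The number of member bodies that fell in 5mC stayed between 51 and 77 over all alternatives run. The number that rose was 1 with DESeq2, with limma and without the site with the most tags, 0 at a minimum of 50 tags, 8 on odds relative to each library, and 1 to 2 with 1 library left out. On that relative scale the log2 odds turned positive for members such as KCNH3 (1.70), KCNJ10 (0.43), KCNJ5 (0.73), KCNK17 (0.27), KCNK4 (1.19), KCNN4 (1.60) and KCNV1 (0.75), as that scale takes out the genome-wide difference. At starts with 20 tags, where 0 members could be tested, 5 rose in the window from 2 kb upstream to 1 kb downstream, and 8 rose and 3 fell at 10 tags, 15 and 6 at 5 tags. From the 5-tag counts of 15 and 6, the wider window gave 24 and 3, 500 bp either side gave 7 and 3, 10 tags gave 8 and 3, and leaving out the site with the most tags gave 9 and 3. DESeq2 gave 2 falling starts. Leaving out 1 library gave 0 to 8 rising and 0 falling. Falls in body 5hmC numbered 9 against 5mC alone, 0 on relative odds and 13 to 25 with 1 library left out. Apart from the alternatives that test fewer genes or fewer libraries, the cause was not tested.

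Replicate numbers did not pair the libraries: the correlation of deviations of same-numbered libraries was 0.0083 for body 5mC and 0.015 for body 5hmC. With the replicate number as a block 67 bodies fell and 2 rose in 5mC, 13 starts rose and 3 fell, and 17 bodies fell in 5hmC.

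Depth limits the starts most, with a median of 12.5 tags per library over the 48 members tested, and 5hmC, where most HepG2 values rest on 0 to 6 tags.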
